A study of Rattus norvegicus with 5 samples.

Results

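Genes for the making of ribosomes and for the nucleolus were followed in rat tendon stem/progenitor cells (rTSPCs) that had been passaged in dimethyl sulfoxide (DMSO) alone or in prim-O-glucosylcimifugin (POG) dissolved in it. The rule that chose them used symbols and no measured value, though earlier results of these data were known when it was set. A probe set belonged to them if its gene symbol began with Nop, Nol, Utp, Rrp, Polr1, Exosc, Gnl or Bms, began with Noc and a digit, or was 1 of 15 named symbols such as Fbl, Ncl and Npm1. This gave 40 genes, each with 1 probe set, of 10141 probe sets and 7235 named genes in all. Of the 15 named symbols, 4 (Bop1, Pes1, Wdr12 and Imp4) had no named probe set and were not analysed here.

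The cells were tendon-derived progenitors grown from selected colonies of the Achilles tendons of 3-month-old rats. POG, a chromone from Saposhnikovia root, was added at 20 μmol/L in each passage from passage 3 to passage 12 in the treated cells. The control cells received the same volume of DMSO. The paper states that POG was no longer supplied once passage 12 was reached, before the examinations. Whether POG was still in the medium when RNA was taken was not stated. RNA of passage 12 cells was hybridised to 3 DMSO arrays and 2 POG arrays, and each value is a log2 signal. The labels call the arrays biological replicates without saying whether they came from separate cultures, colonies or animals, so the p-values rest on array-to-array spread that may be no more than technical.

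The nucleolus is where RNA polymerase I copies the ribosomal DNA into a long precursor. Small nucleolar ribonucleoproteins (snoRNPs) modify that precursor, a large assembly called the small subunit processome and a separate set of factors fold and cut it into the small and large subunits, and the RNA exosome trims and degrades its by-products. The work scales with growth and division in most cells, and the transcription factor Myc and the kinase mTOR are known drivers of it. The arrays measured the mRNAs of the factors, not ribosomal RNA or ribosome number.

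The promoters of these genes held 2 short motifs more often than other promoters did, a feature that the choice by symbol did not use. The palindrome CACGTG, the E-box to which Myc with Max and several other factors can bind, was present in 11 of 36 promoters (30.6%), against 7.26% of 18999 promoters of protein-coding genes, when the window from 250 bases before to 50 bases after the RefSeq start (build GRCr8) was searched. Among genes with a named probe set on these arrays, 9.20% of 6073 promoters held it. The median GC content was 58.5% for the 36 promoters and 61.0% for the 6073. The letters ACTTCCG on either strand, a core of ETS factor motifs, were in 12 of 36 promoters (33.3%) and in 8.33% of all protein-coding promoters, in 13.0% of the 6073 promoters of genes with a named probe set and in 12 of 51 promoters of ribosomal protein genes (23.5%). The letters AAGATGG on either strand, a core of the YY1 motif, were in 3 of 36 (8.33%) and in 7.58%. A match describes these letters only and not a bound site. The 120 bases before the start are printed for 4 genes whose E-box lies in that stretch, because they took different courses with POG: Exosc5 rose, Gnl1 and Polr1g fell and Utp4 did not pass the test. Each sequence runs 5′ to 3′ on the strand of the gene, with the E-box in capitals.
Exosc5, chr1:90295789-90295908, plus strand: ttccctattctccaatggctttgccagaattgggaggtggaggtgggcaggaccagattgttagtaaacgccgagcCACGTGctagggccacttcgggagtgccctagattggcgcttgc
Gnl1, chr20:2796925-2797044, minus strand: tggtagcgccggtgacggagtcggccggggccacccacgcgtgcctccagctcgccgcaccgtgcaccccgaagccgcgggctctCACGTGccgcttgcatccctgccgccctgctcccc
Polr1g, chr1:88138770-88138889, minus strand: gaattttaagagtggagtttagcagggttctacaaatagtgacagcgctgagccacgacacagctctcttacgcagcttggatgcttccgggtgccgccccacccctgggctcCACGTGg
Utp4, chr19:51702121-51702240, plus strand: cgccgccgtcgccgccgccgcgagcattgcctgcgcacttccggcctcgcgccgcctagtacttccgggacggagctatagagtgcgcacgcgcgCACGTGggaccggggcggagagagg
The first base of the E-box lay 44 bases before the start in Exosc5, 35 in Gnl1, 7 in Polr1g and 25 in Utp4. Of the 8 promoters of genes that changed, 4 held an E-box (Exosc5 and Fbl among those that rose, Gnl1 and Polr1g among those that fell), as did 7 of 28 promoters of genes that did not pass.

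Against this background the comparison asked whether the machinery of ribosome production differed in late-passage cells after sustained exposure to POG. In a two-sided moderated test with limma (Benjamini-Hochberg adjustment over all 10141 probe sets, threshold 0.05), 9 of 40 genes changed, or 22.5%, against 46.3% of all probe sets, and 31 genes did not pass. Exosc5, Npm1, Nol3, Fbl and Nop53 rose, 12.5% of the genes against 26.7% of all probe sets. Polr1g, Rrp9, Polr1a and Gnl1 fell, 4 of 40 genes against 19.6% of all probe sets. Fewer genes, and fewer of all probe sets, were called when a POG array was left out, which leaves 1 POG array. Without DMSO replicate 2, 6 genes were called, against 37.7% of all probe sets. The number of genes that fell was then 2, against 15.9% of all probe sets. At the thresholds of the methods, an unadjusted p (here limma's) under 0.05 and a difference over 1.5-fold, 6 genes passed, against 41.8% of all probe sets. The differences were small as well. Only Exosc5 and Polr1g differed by more than 2-fold (2 of 40 genes, 18.8% of all probe sets), and 6 genes differed by more than 1.5-fold (15.0% against 42.1%). The median difference, POG minus DMSO on the log2 scale, was 0.05 over the 40 genes and 0.11 over all probe sets, and the median size of the difference irrespective of sign was 0.32 and 0.49. Over probe sets at or above the median signal the order of the medians was the other way round, 0.17 for 25 genes and 0.10 for all. Precision was alike, with a median standard error (SE) of 0.19 for the genes and 0.19 for all probe sets. The median of their mean signals was 9.20 and that of all probe sets 8.45, and Polr1g and Rrs1 lay under the lower quartile of all values in both groups. With the test limited to probe sets at or above the median signal, 9 of 25 remaining genes passed (36.0%), against 57.1% of those probe sets. These were the 5 of the 9 genes above that were bright enough, with Nip7, Utp20, Utp4 and Wdr43 added.

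**Figure D1:**
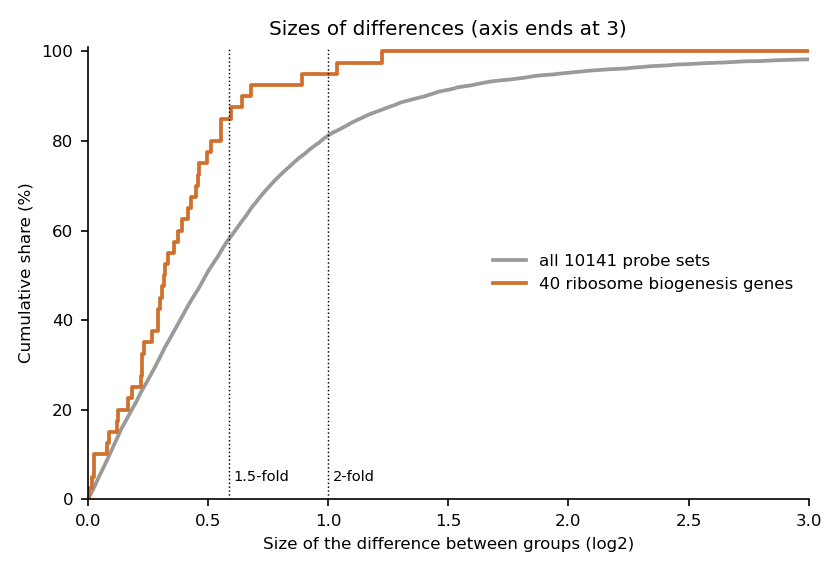
Cumulative share (%) of the 40 ribosome biogenesis genes (orange) and of all 10141 probe sets (grey) by the size of the difference between POG and DMSO arrays on the log2 scale, with dotted lines at 1.5-fold and 2-fold. The orange line runs above the grey one at both marks: 2 of the 40 genes and 18.8% of all probe sets lie beyond 2-fold.

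Arrays of the 2 treatments were also closer to each other over these genes than over the whole table. The SD of the difference between a DMSO and a POG array was 0.46 to 0.58 over the 40 genes and 0.99 to 1.04 over all probe sets, while that between arrays of the same treatment was 0.28 to 0.39 and 0.32 to 0.37. The groups of arrays did not overlap for 20 of 40 genes (66.8% of all probe sets), 10 higher (38.3% of all probe sets were higher in this way) and 10 lower (28.5%), and overlapped for the other 20. The split of calls depended on the scaling of the arrays. As deposited, the array medians over all probe sets were 8.36, 8.43 and 8.45 with DMSO and 8.48 and 8.52 with POG. In place of 5 higher and 4 lower, quantile normalization gave 5 and 8, and centring each array on its median gave 3 and 8, with the calls for Fbl and Nop53 lost in the latter. Of all probe sets, 21.8% and 22.7% were lower in these fits, close to 8 of 40 genes, so the smaller share of genes that fell was not seen under either scaling. The shares higher were 23.0% and 22.6% of all probe sets, above those of the genes.

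**Figure D2:**
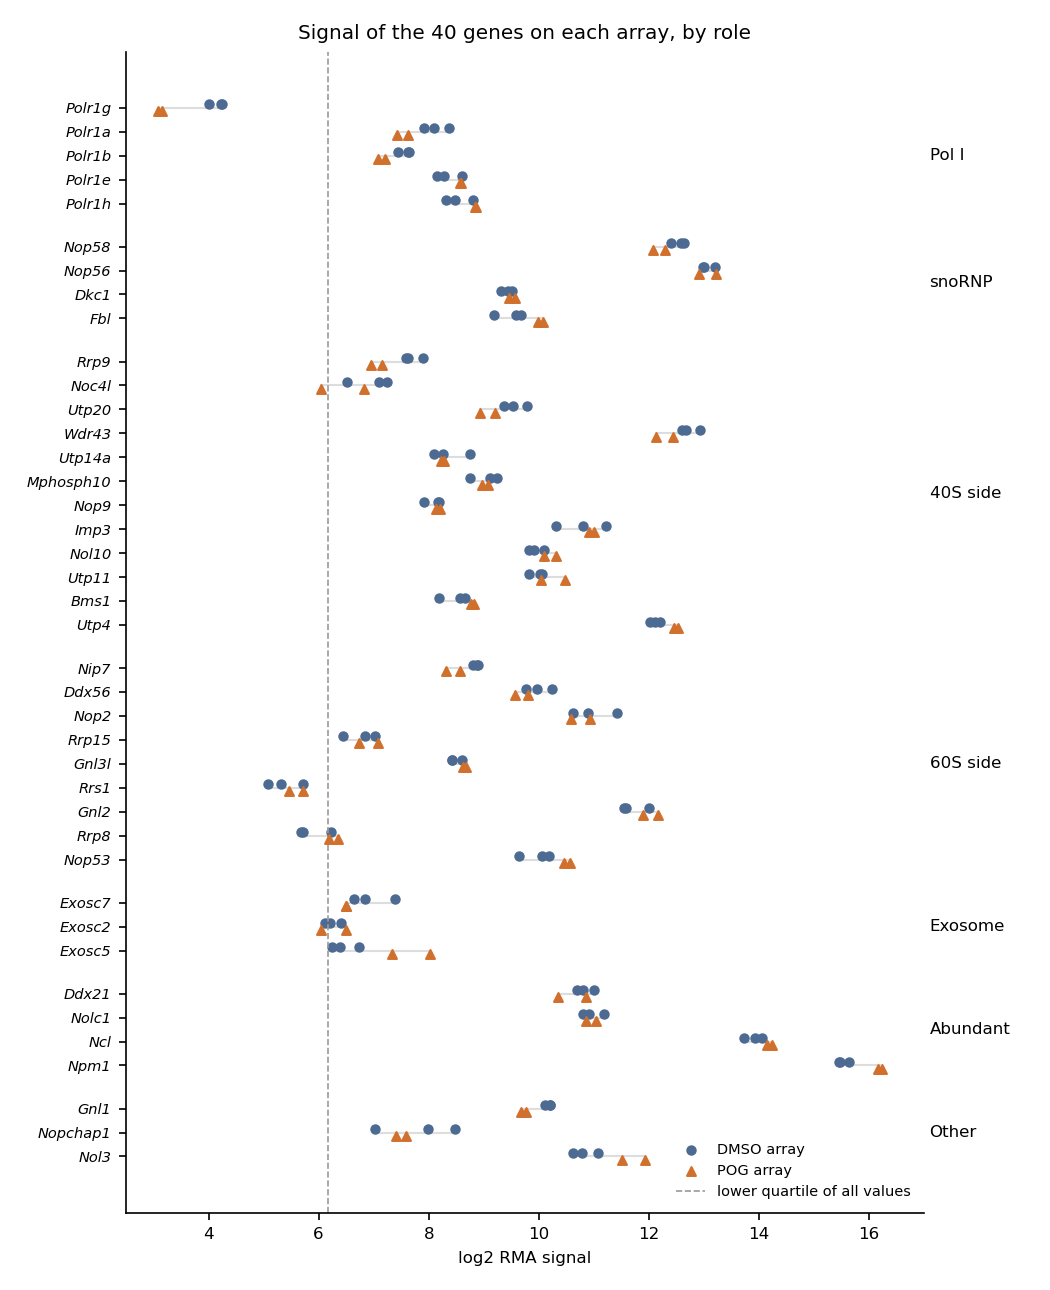
Log2 RMA signal of the 40 genes on each DMSO array (blue circles, n = 3) and POG array (orange triangles, n = 2), ordered by role (Pol I, RNA polymerase I; 40S side and 60S side, factors for the small and large subunit; Abundant, major proteins of the nucleolar body), with the lower quartile of all values, 6.17, as a dashed line. Polr1g lies wholly under that line, and for Npm1, Nol3 and Exosc5 both POG arrays lie above every DMSO array.

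RNA polymerase I, the enzyme that transcribes the ribosomal DNA, had 2 of 5 measured subunits lower (Polr1a and Polr1g) and 0 higher. With so few subunits, 2 of 5 called is near the 46.3% of all probe sets, and here and in the other roles the counts only say which genes passed. Polr1a, the largest subunit, read 8.36, 8.09 and 7.92 with DMSO and 7.43 and 7.63 with POG. The groups did not overlap, and Polr1a fell by 0.59 ± 0.19 on the log2 scale (SE; limma adjusted p = 0.0283). It did not pass without DMSO replicate 1 or 2 (adjusted p = 0.0676 and 0.0607) or without POG replicate 1 or 2 (0.16 and 0.0704). Polr1b, its partner in the catalytic centre, read 7.62, 7.45 and 7.64 against 7.20 and 7.08. Both POG arrays were below all DMSO arrays, but its difference of -0.43 ± 0.17 missed the threshold (adjusted p = 0.0603); it passed after quantile normalization and after centring. Polr1g, a subunit that is specific to this polymerase, read 4.01, 4.23 and 4.25 against 3.09 and 3.16 and fell by 1.04 ± 0.17 (adjusted p = 0.000999). Both of its group means, 4.16 and 3.13, lie under 6.17, the lower quartile of all values, where signal could not be separated from background because no detection calls were used. Polr1e and Polr1h were at 0.23 (95% confidence interval -0.19 to 0.65) and 0.32 (-0.11 to 0.75), so that a rise of 1.5-fold, which is 0.58 on this scale, is within both intervals.

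Among the snoRNP proteins, Fbl alone changed. Fbl encodes fibrillarin, the methyltransferase of the box C/D snoRNPs, and read 9.18, 9.58 and 9.68 with DMSO and 9.99 and 10.08 with POG. It rose by 0.56 ± 0.20 (adjusted p = 0.0408), with no overlap between the groups, and did not pass after centring (adjusted p = 0.0612), without DMSO replicate 1 or 2 (0.0982 and 0.0649) or without POG replicate 1 or 2 (0.115 and 0.176). Its partners in the same particle did not pass. Nop56 read 12.99, 13.21 and 13.01 against 13.22 and 12.91, a difference of -0.01 (interval -0.41 to 0.40), an interval narrower than 1.5-fold in both directions. Nop58 read 12.41, 12.58 and 12.64 against 12.29 and 12.08, with a difference of -0.36 ± 0.17 (adjusted p = 0.116). Dkc1, the pseudouridine synthase of the box H/ACA snoRNPs, was at 0.09 (interval -0.29 to 0.46).

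The small subunit processome and the factors that mature the small subunit were the largest set, and 1 of 12 changed (8.33%, against 46.3% of all probe sets). Rrp9, a protein of the U3 snoRNP that guides the early cuts, read 7.89, 7.62 and 7.58 with DMSO and 6.95 and 7.16 with POG. It fell by 0.64 ± 0.18 (adjusted p = 0.0165), and the groups did not overlap. Without POG replicate 1 the adjusted p was 0.113. Utp20, a large scaffold protein, read 9.53, 9.37 and 9.78 against 8.93 and 9.20, with a difference of -0.50 ± 0.19 (adjusted p = 0.0564). Wdr43, which in yeast is Utp5 and belongs to the complex that binds the precursor first, read 12.93, 12.67 and 12.60 against 12.13 and 12.44, with a difference of -0.45 ± 0.19 (adjusted p = 0.0747). Utp4, of the same early complex, was on the other side of zero: it read 12.03, 12.20 and 12.11 against 12.53 and 12.45, a difference of 0.38 ± 0.17 (adjusted p = 0.0877). In all 3 the POG arrays lay on one side of the DMSO arrays while the adjusted p missed the threshold. Utp20 passed after quantile normalization (adjusted p = 0.0319), after centring (0.0282) and over brighter probe sets (0.0295). Wdr43 passed after centring (0.0449), over brighter probe sets (0.0413) and with the trend and robust options (0.0262), and Utp4 in the last 2 of these. The other 8 ranged from -0.51 (Noc4l) to 0.32 (Bms1, the GTPase of the processome), and 6 of the 12 differences were positive and 6 negative.

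Of 9 factors for the large subunit, Nop53 rose. Nop53, which brings the exosome to the precursor of the large subunit, read 9.65, 10.18 and 10.05 with DMSO and 10.57 and 10.46 with POG. The difference was 0.56 ± 0.20 (adjusted p = 0.0432), and it passed in 5 of the 13 alternatives run, 1 of which repeats the main fit. It was lost without DMSO replicate 1 or 3 (adjusted p = 0.104 and 0.0597) and without POG replicate 1 or 2 (0.182 and 0.12). Nip7, a factor in the maturation of the large subunit, read 8.89, 8.88 and 8.80 against 8.31 and 8.57, a difference of -0.42 ± 0.17 (adjusted p = 0.0704), with no overlap. It passed after quantile normalization (0.0328), after centring (0.0357) and over brighter probe sets (0.0364). Rrp8, an rRNA methyltransferase of the nucleolus, was at 0.39 ± 0.21 (adjusted p = 0.147), and at 0.57 without DMSO replicate 1 (0.0316). The remaining 6 (Ddx56, Gnl2, Gnl3l, Nop2, Rrp15 and Rrs1) lay between -0.30 and 0.31. Nip7 and Utp4 lie close to each other on chromosome 19, with 4 protein-coding genes between them in the GRCr8 gene order, and were measured with opposite signs.

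The exosome held the largest rise of all 40 genes. Exosc5, a subunit of the ring of the RNA exosome, read 6.24, 6.73 and 6.38 with DMSO and 7.33 and 8.02 with POG. The POG arrays were higher than every DMSO array, though 0.69 apart from each other. Exosc5 rose by 1.23 ± 0.24, or 2.34-fold (adjusted p = 0.00261), and by 0.88 without POG replicate 2 and 1.57 without POG replicate 1. With the methods' t-test it did not pass (adjusted p = 0.0901). The other measured ring and cap subunits did not pass with all arrays as deposited. Exosc7 read 6.65, 7.38 and 6.85 against 6.50 and 6.50, with a difference of -0.46 ± 0.22 (adjusted p = 0.117). It passed after quantile normalization (-0.65, adjusted p = 0.0361) and without DMSO replicate 1 (-0.62, 0.0442), and was at -0.25 without DMSO replicate 2. Exosc2, of the cap, was at 0.03 (interval -0.41 to 0.46).

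Among the major proteins of the nucleolar body, Npm1 rose and 3 did not pass. Npm1, the histone and ribosome chaperone nucleophosmin, read 15.48, 15.45 and 15.63 with DMSO and 16.23 and 16.17 with POG. The gap between the groups was wider than the spread within either, and Npm1 rose by 0.68 ± 0.17, or 1.60-fold (adjusted p = 0.00864). Without POG replicate 1 the difference was 0.65 and the adjusted p 0.0542. Ncl, nucleolin, read 14.05, 13.93 and 13.73 against 14.24 and 14.15. Both POG arrays were higher, but the difference of 0.29 ± 0.18 did not pass (adjusted p = 0.196). The RNA helicase Ddx21 was at -0.23 ± 0.20 (adjusted p = 0.367), and Nolc1, a scaffold of the nucleolus and of Cajal bodies, at -0.03 (interval -0.43 to 0.38).

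Of the remaining 3 genes, Nol3 and Gnl1 share the symbols more than the function. Nol3, also called ARC, is an inhibitor of apoptosis. It read 11.07, 10.63 and 10.79 with DMSO and 11.51 and 11.93 with POG, and rose by 0.89 ± 0.20, (adjusted p = 0.00626), with no overlap. Without POG replicate 2 the adjusted p was 0.0744. Gnl1, a GTPase with no settled part in ribosome assembly, read 10.11, 10.21 and 10.21 against 9.76 and 9.67 and fell by 0.46 ± 0.16 (adjusted p = 0.0422), a call that each array left out in turn ended, with adjusted p from 0.0502 to 0.175. Nopchap1, a chaperone that in human cells helps to build box C/D snoRNPs, spread widely among the DMSO arrays (7.03, 7.99 and 8.47) and read 7.59 and 7.40 with POG, with a difference of -0.34 ± 0.34 (adjusted p = 0.446). It rested on single DMSO arrays: -0.74 without DMSO replicate 1 (adjusted p = 0.0212) and -0.015 without DMSO replicate 3, as with the replicate block, which leaves that array without a partner.

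**Figure D3:**
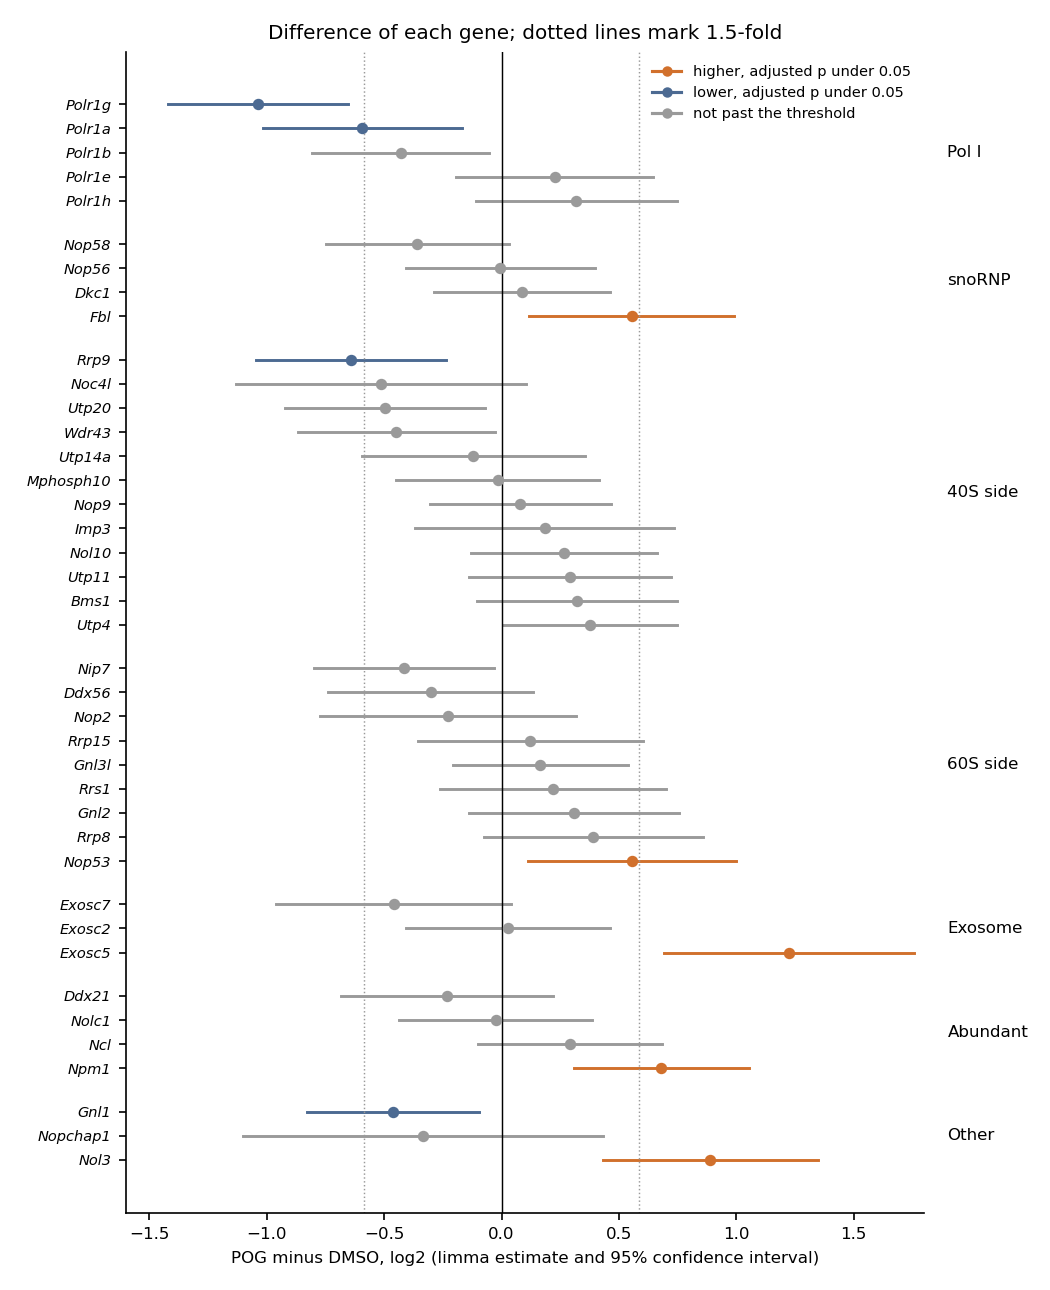
Difference between POG (n = 2) and DMSO (n = 3) arrays for each of the 40 genes on the log2 scale, with the limma estimate as a point and its 95% confidence interval as a bar, ordered by role. Orange genes rose and blue genes fell at an adjusted p under 0.05; the grey ones did not pass, and only Exosc5 and Polr1g lie wholly outside the dotted 1.5-fold lines.

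A difference that missed the threshold is not shown to be absent. Of the 40 genes, 7 had a 95% confidence interval wholly inside 1.5-fold in either direction (17.5%, against 16.8% of all probe sets): Nop56, Dkc1, Mphosph10, Nop9, Gnl3l, Exosc2 and Nolc1. For the other 24 genes that did not pass, a change of 1.5-fold in at least one direction lay within the interval.

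Ribosome factors outside the choice by symbol also had smaller shares of calls than all probe sets. Of 102 such genes listed, 64 had a named probe set, and 6 were higher and 8 lower (9.38% and 12.5%, against 26.7% and 19.6% of all probe sets), with a median difference of 0.06. Those with the smallest p-values fell. Ddx54, an RNA helicase, read 8.6, 8.61 and 9.01 with DMSO and 7.68 and 7.77 with POG and fell by 1.02 ± 0.19 (adjusted p = 0.00201). Heatr1, the counterpart of yeast Utp10 in the processome, read 8.85, 8.87 and 8.95 against 7.94 and 8.20 and fell by 0.82 ± 0.17 (adjusted p = 0.00384). Pdcd11, the counterpart of yeast Rrp5, fell by 0.90 ± 0.18 and the helicase Ddx27 by 0.78 ± 0.23. Ppan, Sbds, Urb2 and Lyar were the other 4 that fell. Emg1, Dimt1, Pak1ip1, Nsa2, Mtrex and Mrto4 rose, by 0.48 (Mrto4) to 0.57 (Pak1ip1). The number of rises in this list depended on the fit. Quantile normalization left 3 genes higher and 8 lower, and median centring left 2 higher and 9 lower. Dropping DMSO replicate 1, 2 or 3 gave 3, 1 and 3 higher and 7, 4 and 5 lower. Array weights went the other way, with 8 higher and 9 lower.

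Of 19 measured genes listed for rRNA transcription and its regulation, 4 were higher and 3 lower (21.1% and 15.8%), near the 26.7% and 19.6% of all probe sets. The list includes Rps6, which is also counted among the ribosomal proteins below. Rrn3, the factor that makes RNA polymerase I competent to start, read 9.78, 9.79 and 9.93 with DMSO and 10.55 and 10.71 with POG. It rose by 0.80 ± 0.17 (adjusted p = 0.00408), while Polr1a fell. Taf1c, a subunit of the selectivity factor that recruits Rrn3 and the polymerase, read 5.64, 6.07 and 5.95 against 4.82 and 5.12 and fell by 0.92 ± 0.20 (adjusted p = 0.00424); both means are under the lower quartile. Ubtf, the factor that keeps ribosomal DNA open, was at 0.27 ± 0.18 (adjusted p = 0.239). Myc read 10.12, 9.76 and 9.99 against 10.39 and 10.14, a difference of 0.31 ± 0.19 (adjusted p = 0.195). Mxi1, a Max partner that opposes Myc at E-boxes, read 6.33, 6.57 and 6.49 against 7.86 and 8.38 and rose by 1.66 ± 0.20 (adjusted p = 0.000137). The ribosomal protein gene Rps6, whose product is phosphorylated downstream of mTOR, rose by 0.98 ± 0.17, and Maf1, a repressor of RNA polymerase III, by 0.68 ± 0.19. Cavin1, also known as a release factor of RNA polymerase I, fell by 1.04 ± 0.27 and the topoisomerase Top1 by 0.57 ± 0.17. RNA polymerase III and its 5S rRNA factors had 3 of 9 measured genes higher and 0 lower, and 33.3% is near the 26.7% of all probe sets that were higher. These were Gtf3a, the 5S rRNA factor (0.77 ± 0.17, adjusted p = 0.0047), Polr3k (1.00 ± 0.26, adjusted p = 0.0124) and Crcp (0.76 ± 0.20, adjusted p = 0.0112).

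Of 61 measured genes for cytosolic ribosomal proteins, a comparison added after the values were seen and taken by symbol, 53 were higher and 0 lower (86.9%, against 26.7% of all probe sets higher), with a median difference of 0.77 and 6 over 2-fold. The median of their mean signals was 14.33, against 8.45 over all probe sets. With the test limited to probe sets at or above the median signal, 30.8% of those were higher. The difference between the ribosomal protein genes and the 40 genes was not tested, and the count of 53 was not recomputed under other settings. The promoters of the ribosomal protein genes held the E-box in 4 of 51 cases (7.84%).

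**Figure D4:**
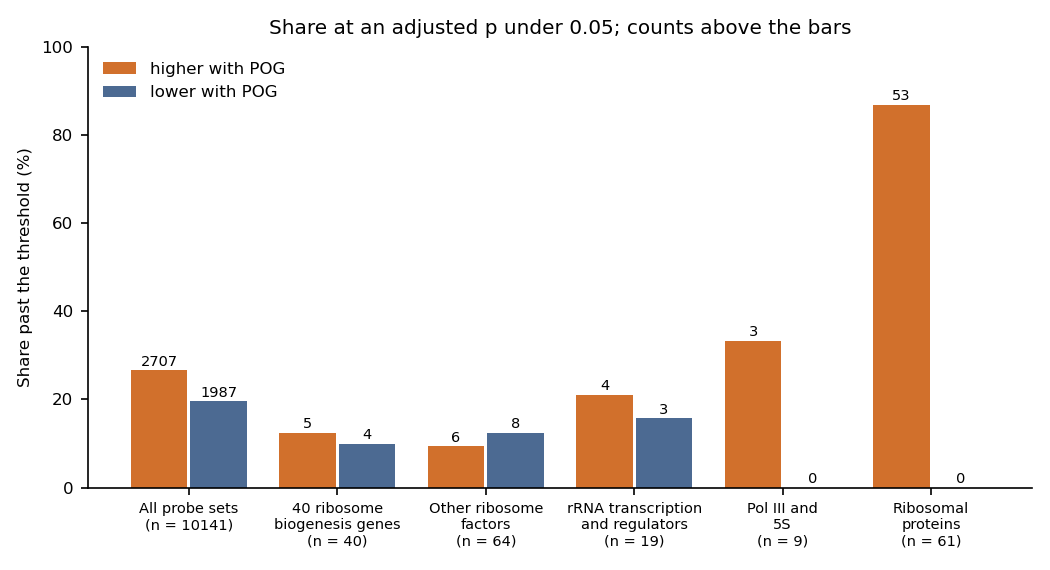
Share (%) of probe sets or genes in each list that were higher (orange) or lower (blue) with POG at an adjusted p under 0.05 (limma), with counts above the bars and the number measured under each name. The bars of the 40 ribosome biogenesis genes (5 and 4) and of the other ribosome factors (6 and 8) are shorter than those of all probe sets, and the ribosomal protein bar reaches 86.9%.

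Other lists moved in the same comparison, and their part in these results was not tested. Of 10 measured proliferation genes 8 rose and 0 fell (26.7% of all probe sets rose and 19.6% fell, also for the lists that follow), and their summed signal (log2 of the summed linear signals) was 11.63 to 11.83 with DMSO and 12.89 to 12.92 with POG. All 6 measured smooth muscle and pericyte markers fell (19.84 to 19.94 against 17.62 to 17.64). All 4 measured leukocyte markers rose (6.56 to 6.71 against 8.34 to 8.56), with Ptprc, Tyrobp, Cd3e and Itgam not measured by name. The DMSO means of these 4 were under the lower quartile, 6.17 (Lyz2 5.04, Cd53 3.98, Cd68 5.18 and Fcer1g 3.55). Fcer1g was under it with POG too (4.77). Among the 3 measured markers of endothelium Cd34 fell while Kdr rose (6.82 to 7.24 against 6.98 to 7.08). The POG mean of Cd34 (5.01) and the DMSO mean of Kdr (4.47) were under the lower quartile. Of 9 measured tendon and fibroblast markers 4 rose, Lum by 9.12 on the log2 scale, Dcn by 8.24, Fmod by 6.57 and Thbs4 by 2.68. Of the other 5, Egr1 was at 0.45 and Col3a1, Tnc, Scx and Col1a1 lay between -0.39 and -0.14 without passing, and the sum over the list was 19.82 to 19.92 with DMSO and 20.34 to 20.45 with POG. Scx was under the lower quartile in both groups (6.08 and 5.77), as was Lum with DMSO (5.96). Tnmd and Mkx had no named probe set. In RNA from whole cultures, a change in the share of a cell type and a change in RNA per cell cannot be told apart. RMA also sets the arrays to a common scale, so a change in total RNA per cell was not measured.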

How the data were processed

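Gene expression was measured on 5 Affymetrix rat transcriptome arrays from 150 ng of total RNA each, 3 from DMSO-treated and 2 from POG-treated rTSPCs, grouped by their labels. The authors deposited log2 signals per probe set, made with robust multi-array average (RMA, version not given in the sources used here) under default settings and global scaling. The other deposited file repeats these log2 values (largest difference 0). The rule that chose the 10141 probe sets, whose values ran from 2.98 to 19.47, was not given, and no detection calls were used, so low signals may be background. Precision is set by how few arrays there were. The platform record behind the annotation carries another name than the array in the methods, and symbols were joined by probe set identifier. The annotation gave 1 symbol for 7240 probe sets, several for 0 and none for 2901. All 40 genes matched a current RefSeq gene identifier under the same symbol.

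Each probe set was compared with limma 3.58.1 in R 4.3.3, two-sided, and p-values were adjusted by the Benjamini-Hochberg method across the whole table, after the fit was tested on simulated data. For listed genes with more than 1 probe set, the one with the highest mean was taken. Promoters came from RefSeq (GRCr8), with 36 of 40 genes matched. The members, lists, role groups and motifs were chosen with earlier results of these data known. Genes were named by rule: the largest rises and falls among genes that passed without overlap, up to 3 per role group and up to 4 per outside list by p-value, and a fixed set of well-known genes; further genes were named after their values were seen. Results for the 40 genes were recomputed from the repeated file, after quantile normalization or median centring, over brighter probe sets and per gene. They were also recomputed with limma's trend and robust options or array weights, with a replicate block and without each array in turn. Further alternatives were the t-test and thresholds of the methods. The role groups and outside lists went through the same refits. Counts for the ribosomal protein genes and the marker and proliferation lists were not recomputed.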

Additional observations from a re-analysis of the deposited data

How the results depend on the processing

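The count of genes called, 9 of 40, stayed under the share of all probe sets in each of the 13 other fits run: it was 7.50% to 36.0% of the genes tested, against 20.5% to 57.1% of the probe sets in the same fits. Scaling moved the direction of the calls: quantile normalization gave 8 lower in place of 4, and centring each array gave 3 higher and 8 lower. Of all probe sets 21.8% and 22.7% were lower in these fits, so in this direction the genes were near the background. The median difference of all probe sets went from 0.11 to 0.05 and 0.02 in these fits, and that of the genes from 0.05 to -0.05 and -0.03. Over brighter probe sets the medians were 0.10 for all and 0.17 for the genes. When an array was left out, 3 to 8 genes were called, 2 to 4 higher and 1 to 4 lower. There were 3 without POG replicate 1 (7.50%, against 31.5% of all probe sets) and 4 without POG replicate 2 (against 28.6%), fits that take the spread from the DMSO arrays and lend it to the single POG array. Without DMSO replicate 2 there were 6 (against 37.7% of all probe sets), of which 2 were lower (against 15.9%). The methods' t-test with adjustment called 3 (7.50%, against 20.5% of all probe sets), of which 1 was higher and 2 lower. Exosc5, Fbl, Nol3, Nop53, Polr1a and Rrp9 did not pass it. At the thresholds of the methods 3 were higher and 3 lower, against 24.1% and 17.6% of all probe sets. The methods' t-test there, an alternative chosen after seeing the data, gave the same numbers, against 18.4% and 14.3%. Polr1g passed in all 12 fits in which it was tested, Npm1 in 12 of 13, Exosc5 in 11 of 12 and Nol3 in 11 of 13. Rrp9 passed in 10 of 12, Polr1a in 7 of 12, Fbl in 7 of 13, Gnl1 in 7 of 13 and Nop53 in 5 of 13. No called gene changed sign in these fits. Fbl did not pass after centring, with the methods' t-test, or without DMSO replicate 1, DMSO replicate 2, POG replicate 1 or POG replicate 2. Genes near zero did change sign: Exosc2 was at -0.15 after quantile normalization and -0.06 after centring, and between -0.193 (without POG replicate 1) and 0.247 (without POG replicate 2) with an array left out, with -0.035 without DMSO replicate 2. Nop56 was at 0.001 after quantile normalization and between -0.16 (without POG replicate 1) and 0.15 (without POG replicate 2), with 0.065 without DMSO replicate 2. Ddx21 was between -0.487 (without POG replicate 1) and 0.0233 (without POG replicate 2). With the replicate block 7 genes were called and Gnl1 and Nop53 were lost. For the 2 shared replicate numbers, the deviations from the group means correlated at 0.00417 and 0.00522 between treatments, so the numbers gave no sign of pairing. The second table holds the same values and each gene has 1 probe set, so that table and counting genes could only give the same calls. The second table is 1 of the 13 other fits, so each tally of fits above includes 1 that repeats the main result. The causes of these shifts were not tested.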
